A study of Danio rerio with 16 samples.

Results

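The livers of adult female zebrafish that had gone without food for 7 days (Fasted) were compared with the livers of adult females fed through the same 7 days (Fed), both kept in water with 0 ng/L fluoxetine. Members were chosen by their labels, which give 4 Fasted and 4 Fed arrays, 8 of the 16 arrays of the series. The other 8 came from Fed and Fasted fish held in fluoxetine (FLX), an antidepressant that blocks serotonin reuptake, at 540 ng/L. They entered through the normalization and spot summary, done over all 16 arrays, and through the spread that all groups share in the fit. They also entered the choice of detected miRNAs in some scalings, and a comparison of the fasting difference with and without FLX. Each sample pooled a pair of livers and each treatment was held in a single tank, so that feeding state and tank cannot be told apart, and p-values measure only the spread between these samples. In whole liver, fewer cells of a type and less RNA per cell cannot be told apart either.

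MicroRNAs (miRNAs) are short RNAs that guide the Argonaute proteins to matching sites in messenger RNAs, mostly through a short seed near their 5′ end, and lower the stability or translation of those targets. Many are cut from shared transcripts, so that neighbouring miRNA genes are made together, and related miRNAs often share a seed. A liver without food turns from storing glucose and making fat to breaking down glycogen, making glucose and burning fatty acids. In mammals miR-122, the let-7 family, miR-103, miR-107, miR-26 and miR-29 have been tied to lipid and insulin pathways in the liver.

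The arrays carried 60 spots for each of 248 zebrafish miRNAs. Detection here means that 50% or more of the usable spots of a miRNA stood well above background on the array. By this measure 54 miRNAs were present on each of the 8 arrays and 93 on 1 or more of them. The liver label held against hepatocyte markers: dre-miR-122, dre-miR-192 and dre-miR-194a were detected on all 8 arrays, dre-miR-148 on 1 Fasted and 4 Fed arrays, and dre-miR-194b on none. The 9 neural markers and the 5 members of the miR-430 group, which mark eggs and early embryos, were detected on none of the 8 arrays.

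Before normalization the Fasted arrays were the brighter in the mean. The miRNA spot signals summed to 1.47e+06, 1.38e+06, 1.57e+06 and 1.26e+06 intensity units on Fasted arrays 1 to 4, against 1.16e+06, 1.03e+06, 1.34e+06 and 1.09e+06 on Fed arrays 1 to 4. Fasted was higher within each of the 4 pairs of arrays that share a replicate number, a slide and a slide column, but the groups overlapped, since Fed array 3 lay above Fasted array 4. The ratio of the means was 1.23 (two-sided exact permutation test, p = 0.0571, where the smallest possible was 0.0286).

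The number of detected miRNAs was 78, 78, 74 and 75 on the Fasted arrays, against 71, 64, 72 and 77 on the Fed arrays. The means were 76.3 ± 2.06 and 71.0 ± 5.35 (SD, n = 4 each), with p = 0.114 by the exact permutation test and 0.171 after adjustment over the 3 array measures tested (detected miRNAs, spots well above background and the 75th percentile of the spot signals). The control probes differed among themselves in this. Dmr_285 averaged 710 ± 72.7 on Fasted and 790 ± 48.2 on Fed arrays, dmr_31a averaged 174 ± 18.1 on Fasted and 201 ± 20.1 on Fed arrays, and the Fasted to Fed ratios of dmr_3, dmr_6, hur_2 and hur_6 were 0.996, 1.00, 0.996 and 0.934. Control hur_1 was higher on the Fasted array of all 4 pairs, with a ratio of 1.08 (exact permutation test, p = 0.286). Probes meant to bind nothing read 2.75 ± 1.03 on Fasted and 1.85 ± 0.58 on Fed arrays (SD, n = 4 each).

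**Figure D1:**
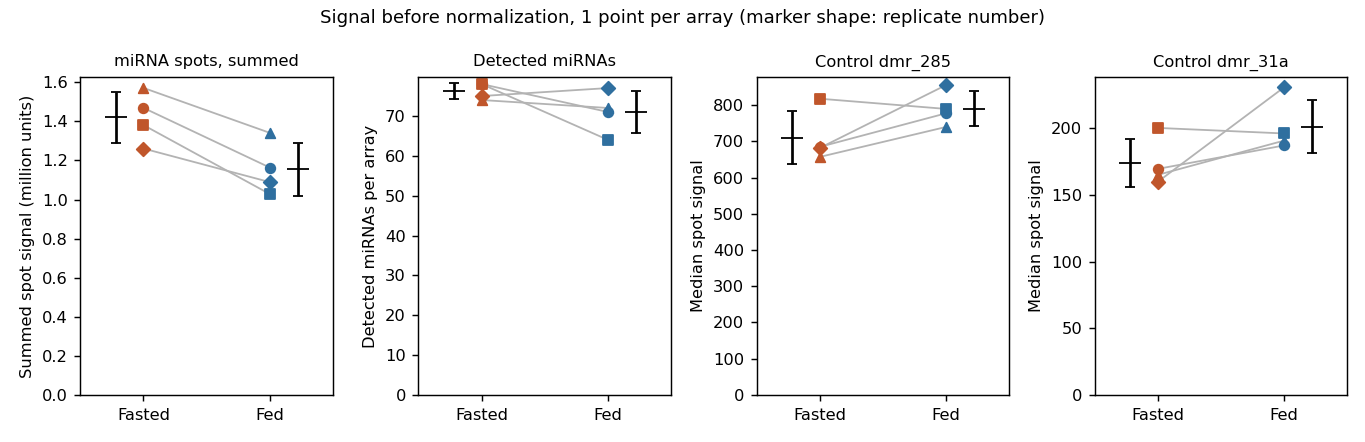
Signal before normalization on the 4 Fasted and 4 Fed arrays, as the summed signal of the miRNA spots in intensity units, the number of detected miRNAs, and the median spot signal of controls dmr_285 and dmr_31a. Each point is an array, lines join arrays of the same replicate number, and bars give the mean and SD (n = 4); the summed signal was higher on the Fasted array of all 4 pairs, and each of the 2 controls on the Fasted array of 1 pair.

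The values that follow are RMA values, that is, log2 intensities after background correction and after quantile normalization, which gives every array the same distribution of spot signals and so takes out the difference in brightness. Differences are Fasted minus Fed on this log2 scale. No miRNA passed the test between Fasted and Fed: 0 of 248 (0%) had a limma adjusted p under 0.05 with at least a 2-fold difference, and 0 of 248 (0%) had one at any fold. The smallest adjusted p was 0.140, that of dre-miR-130a.

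Without adjustment, 29 of 248 (11.7%) had a p under 0.05. Fasted was the higher group for 24 (9.68% of those tested) and the lower for 5 (2.02%). Of these 29, 11 were detected on all 8 arrays, 8 on some and 10 on none. The differences of all 248 lay on either side of 0 in near equal number, 123 above and 125 below, with a median of -0.00.

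For the miRNAs with good signal the arrays left little room for a large difference. Among the 54 detected on all 8 arrays the differences ran between -0.62 and 0.58, the median standard error was 0.13, and for 50 of the 54 the whole 95% interval lay inside a 2-fold change either way. All 4 pairs were higher in Fasted for 13 of the 54 (24.1%) and lower for 14 (25.9%), where over all 248 the counts were 38 (15.3%) and 33 (13.3%). With the replicate number as a block, 0 miRNAs had an adjusted p under 0.05 and the smallest was 0.0604, for dre-miR-146a. The count at an unadjusted p under 0.05 then was 46, with Fasted higher for 28 (11.3%) and lower for 18 (7.26%).

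Leaving out the quantile normalization kept the difference in brightness in the values. The median difference of the 54 was then 0.31, against 0.00 in the RMA values, and 49 of the 54 were above 0. Over all 248 miRNAs, most of them not detected on every array, the median was -0.05. The upward shift thus held for the bright miRNAs. Most of the 248 were detected on none of the 8 arrays, and values at background cannot show such a shift. The median over all 248 therefore cannot tell whether dimmer miRNAs shared it. Without the block 0 of 248 had an adjusted p under 0.05, and with it, a setting chosen after seeing the data, 17 (6.85%) were higher and 2 (0.806%) lower, 0 of them by 2-fold. Among the 17 were dre-miR-122, dre-miR-26a, dre-miR-26b, dre-miR-130a, dre-miR-103, dre-let-7b, dre-let-7c, dre-miR-451, dre-miR-144 and dre-miR-181a-5p, and the lower ones were dre-miR-146a and, named after its values were seen, dre-miR-31, which was detected on none of the 8 arrays. With the block and the 75th percentile of detected miRNAs as the scale the count was 0.

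**Figure D2:**
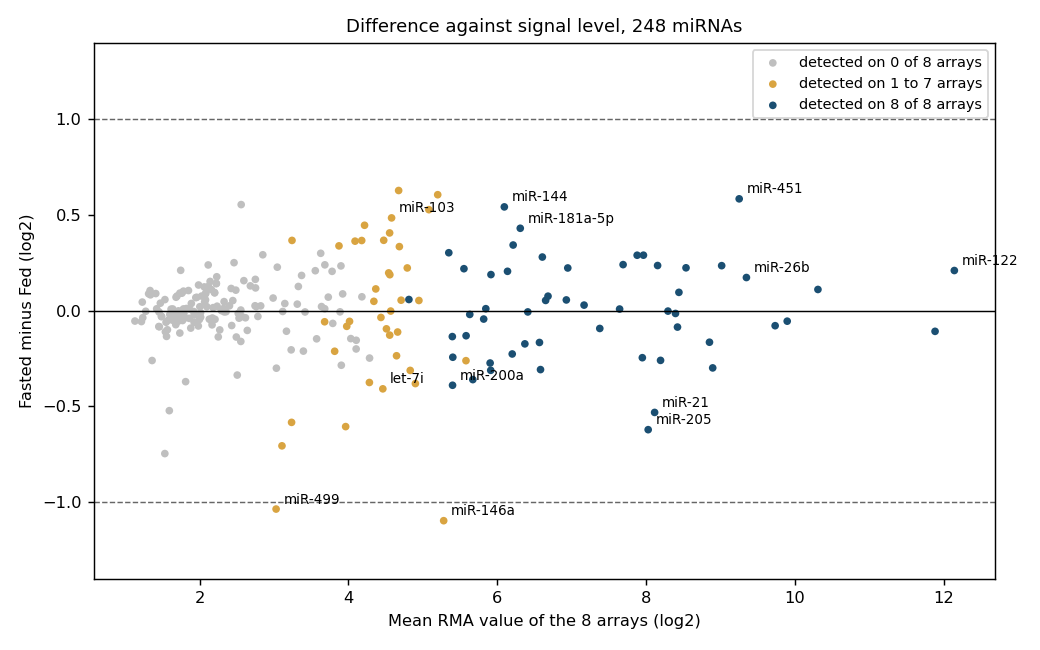
Fasted minus Fed log2 difference against the mean RMA value (log2) of the 8 arrays for 248 miRNAs, with 1 point for each miRNA, coloured by the number of arrays on which it was detected, and dashed lines at a 2-fold change. The 54 miRNAs detected on all 8 arrays lie between -0.62 and 0.58, and the 2 points beyond a dashed line are dre-miR-146a and dre-miR-499.

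The largest positive differences among the 54 were those of the red blood cell pair dre-miR-451 and dre-miR-144, which are cut from 1 transcript and serve red cell maturation in zebrafish. Dre-miR-451 read 9.95, 9.40, 9.38 and 9.44 on Fasted arrays 1 to 4, against 9.41, 9.06, 8.13 and 9.22 on Fed arrays 1 to 4. Fed array 3 was far below the others, and Fed array 1 lay within the range of the Fasted arrays. The difference was 0.58 ± 0.28 (SE; adjusted p = 0.394), with all 4 pairs higher, and without Fed array 3 it was 0.31. Dre-miR-144 read 6.73, 6.23, 6.12 and 6.38 in Fasted, against 5.75, 6.14, 4.996 and 6.40 in Fed, a difference of 0.54 ± 0.43 (adjusted p = 0.695), which was 0.27 without Fed array 3. Fed array 3 was again the low one, and 3 of 4 pairs were higher. The linear levels of both erythroid markers, detected on all 8 arrays, summed to between 735 and 1094 in Fasted and between 312 and 736 in Fed.

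Dre-miR-2188-5p, named after its values were seen, was highest on the same Fasted array 1 and lowest on the same Fed array 3 as dre-miR-451. It read 6.24, 5.26, 5.23 and 5.27 in Fasted, against 4.93, 5.19, 4.30 and 5.17 in Fed, and the groups did not overlap (difference 0.61 ± 0.34, adjusted p = 0.498). Unlike the erythroid pair, it was not detected on all 8 arrays. Over all 248 miRNAs the arrays of the groups did not overlap for 17 higher in Fasted (6.85%) and 4 lower (1.61%).

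The let-7 family, which holds back proliferation and, in mice, tunes insulin signalling, lay mostly above 0. Of its 10 members 8 were above 0 and 2 below, with a median of 0.10, beside -0.00 over all 248 miRNAs. Without adjustment 4 of the 10 had a p under 0.05 on the higher side and 1 on the lower, where over all 248 the shares were 9.68% and 2.02%, and 0 passed after adjustment. The 6 members detected on all 8 arrays were all above 0 under each of the scalings tried. Their median was 0.18 in the RMA values (0.00 over the 54) and 0.47 without quantile normalization (0.31 over the 54). After scaling to the 75th percentile of detected miRNAs it was 0.15 (0.10 over the 54). Of the 54, 27 were above 0 in the RMA values and 49 without quantile normalization. These members differ from each other by few bases, and how much of one's RNA binds another's probes was not tested.

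Dre-let-7c read 5.49, 5.51, 5.48 and 5.52 on the Fasted arrays, against 5.19, 4.9998, 5.39 and 5.21 on the Fed arrays. The Fasted arrays had an SD of 0.02 and were all above the highest Fed array (difference 0.30 ± 0.09, adjusted p = 0.162). Dre-let-7b differed by 0.28 ± 0.10 and dre-let-7g by 0.24 ± 0.10 (adjusted p = 0.284 and 0.390), while dre-let-7a, the brightest of them, differed by 0.11 ± 0.10.

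Dre-let-7i went the other way. It read 4.12, 4.37, 4.05 and 4.50 in Fasted, against 4.75, 4.50, 4.69 and 4.73 in Fed, and was detected on 0 Fasted and 3 Fed arrays (difference -0.41 ± 0.17, adjusted p = 0.376). All 4 pairs were lower in Fasted.

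The miR-17-92 type clusters carry miRNAs that promote growth and survival in mammalian cells, and zebrafish has several copies of the cluster. Of the 20 members on the array 14 were above 0 and 6 below, with a median of 0.11. Without adjustment 6 of the 20 had a p under 0.05, all higher in Fasted (9.68% of all 248 were higher and 2.02% lower), and 0 passed after adjustment. All 4 pairs were higher for 10 of the 20 and lower for 2, where over all 248 the shares were 15.3% and 13.3%. Over the 7 members detected on all 8 arrays the median was 0.22, and 0.51 and 0.21 under the 2 other scalings. Over the 54 miRNAs detected on all 8 arrays these medians were 0.00, 0.31 and 0.10.

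Dre-miR-20b, a close relative of miR-17, read 6.50, 6.27, 6.23 and 6.54 in Fasted, against 6.09, 5.81, 6.17 and 6.10 in Fed. The lowest Fasted array lay just above the highest Fed array (difference 0.34 ± 0.11, adjusted p = 0.170). Dre-miR-17a-5p differed by 0.29 ± 0.09, dre-miR-92a by 0.29 ± 0.09, dre-miR-93 by 0.34 ± 0.10 and dre-miR-20a-5p by 0.22, each with all 4 pairs higher and no overlap of the groups. Dre-miR-93 was detected on 2 Fasted and 1 Fed arrays, so that its difference is close to background.

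Neighbours in the genome did not all lie on the same side in the RMA values. In the zebrafish annotation dre-miR-17a, dre-miR-20a and dre-miR-92a lie within 10 kb of dre-miR-19a, yet dre-miR-19a-3p was -0.23 ± 0.25 and lower in 3 of 4 pairs. That difference is smaller than its standard error and changed sign without quantile normalization. Dre-miR-17a and dre-miR-92a also lie beside dre-miR-18b at another place in the genome, without dre-miR-19a. The neighbours dre-miR-25, dre-miR-93 and dre-miR-19d were 0.21, 0.34 and 0.11, and the neighbours dre-miR-20b, dre-miR-363 and dre-miR-19c were 0.34, 0.45 and 0.37, with all 4 pairs higher for each of these 6. No call was made for any of them. Dre-miR-363 was detected on 2 Fasted and 0 Fed arrays, dre-miR-19c and dre-miR-19d each on 3 and 0, and dre-miR-93 on 2 and 1. The differences of these miRNAs are thus close to background, while dre-miR-25 and dre-miR-20b were detected on all 8 arrays.

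**Figure D3:**
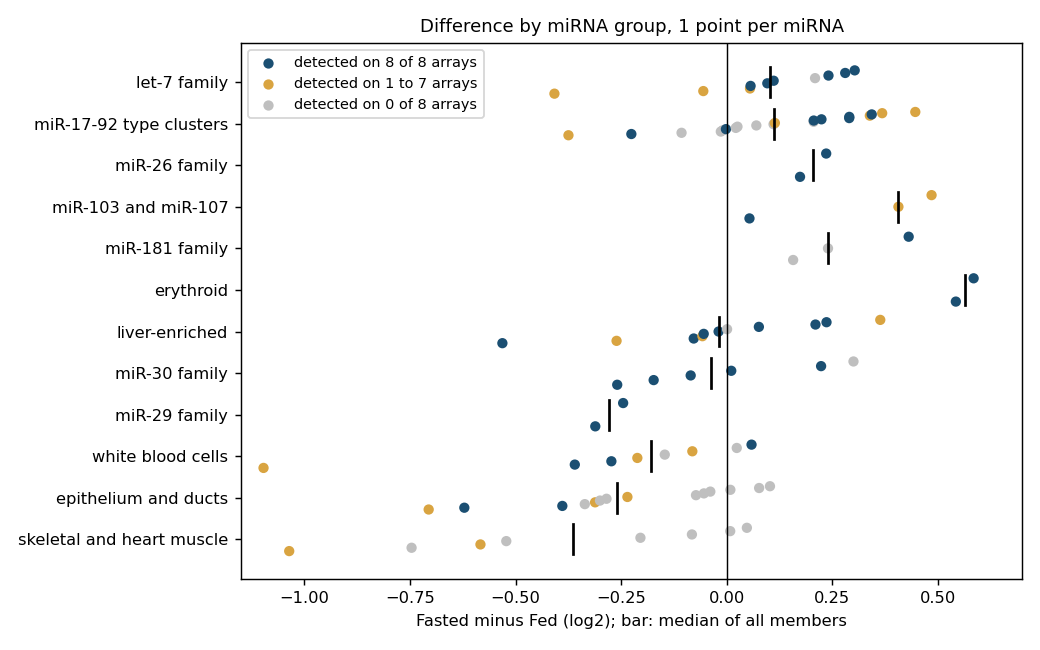
Fasted minus Fed log2 difference of the members of 12 miRNA groups, with 1 point for each miRNA coloured by the number of arrays on which it was detected and a bar at the median of each group. The erythroid pair lies highest, with a median of 0.56, and the medians of the white blood cell, epithelial and muscle lists lie below 0.

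Both members of the miR-26 family, which restrain glucose and lipid synthesis in mouse liver, were higher in Fasted on every array. Dre-miR-26b read 9.46, 9.36, 9.46 and 9.45 in Fasted, against 9.25, 9.25, 9.26 and 9.28 in Fed. Both groups were tight, with SDs of 0.05 and 0.02, and the difference was 0.17 ± 0.05 (adjusted p = 0.170). Dre-miR-26a differed by 0.24 ± 0.10 (adjusted p = 0.376).

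Dre-miR-103, which in mice lowers insulin sensitivity together with its near-identical relative miR-107, read 4.78, 4.71, 4.94 and 4.85 in Fasted, against 4.02, 4.69, 4.44 and 4.20 in Fed. Fed array 2 all but reached the lowest Fasted array. The miRNA was detected on 4 Fasted arrays and 0 Fed arrays. On Fed arrays 2, 3 and 4 its own value nonetheless lay above the dimmest detected signal, at 4.07, 4.12 and 3.78. Against the higher of these values on each Fed array the Fasted mean was 1.32-fold higher, a point estimate and no tested minimum. The difference as measured was 0.48 ± 0.13 (adjusted p = 0.162). Dre-miR-107b differed by 0.41 ± 0.20 and dre-miR-107a, detected on all 8 arrays, by 0.05 ± 0.16, and the part that shared binding plays between these probes was not tested.

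The smallest p of all belonged to dre-miR-130a. It read 4.75, 4.94, 4.88 and 4.83 in Fasted, against 4.32, 4.54, 4.65 and 4.56 in Fed, without overlap, for a difference of 0.33 ± 0.08 (adjusted p = 0.140). It was detected on 4 Fasted and 2 Fed arrays, so that its Fed values are close to background. Dre-miR-30a had one of the 6 smallest p-values as well, at 3.78 ± 0.13 in Fasted and 3.48 ± 0.08 in Fed (SD, n = 4 each), but was detected on 0 of the 8 arrays, so that no fold or difference is given. Dre-miR-181a-5p, of a family that in mice tunes lymphocyte signalling, read 6.56, 6.46, 6.51 and 6.56 in Fasted, against 6.52, 6.14, 6.005 and 5.71 in Fed. The Fasted arrays were close together and the Fed arrays spread, with Fed array 1 at the Fasted level (difference 0.43 ± 0.15, adjusted p = 0.273).

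**Figure D4:**
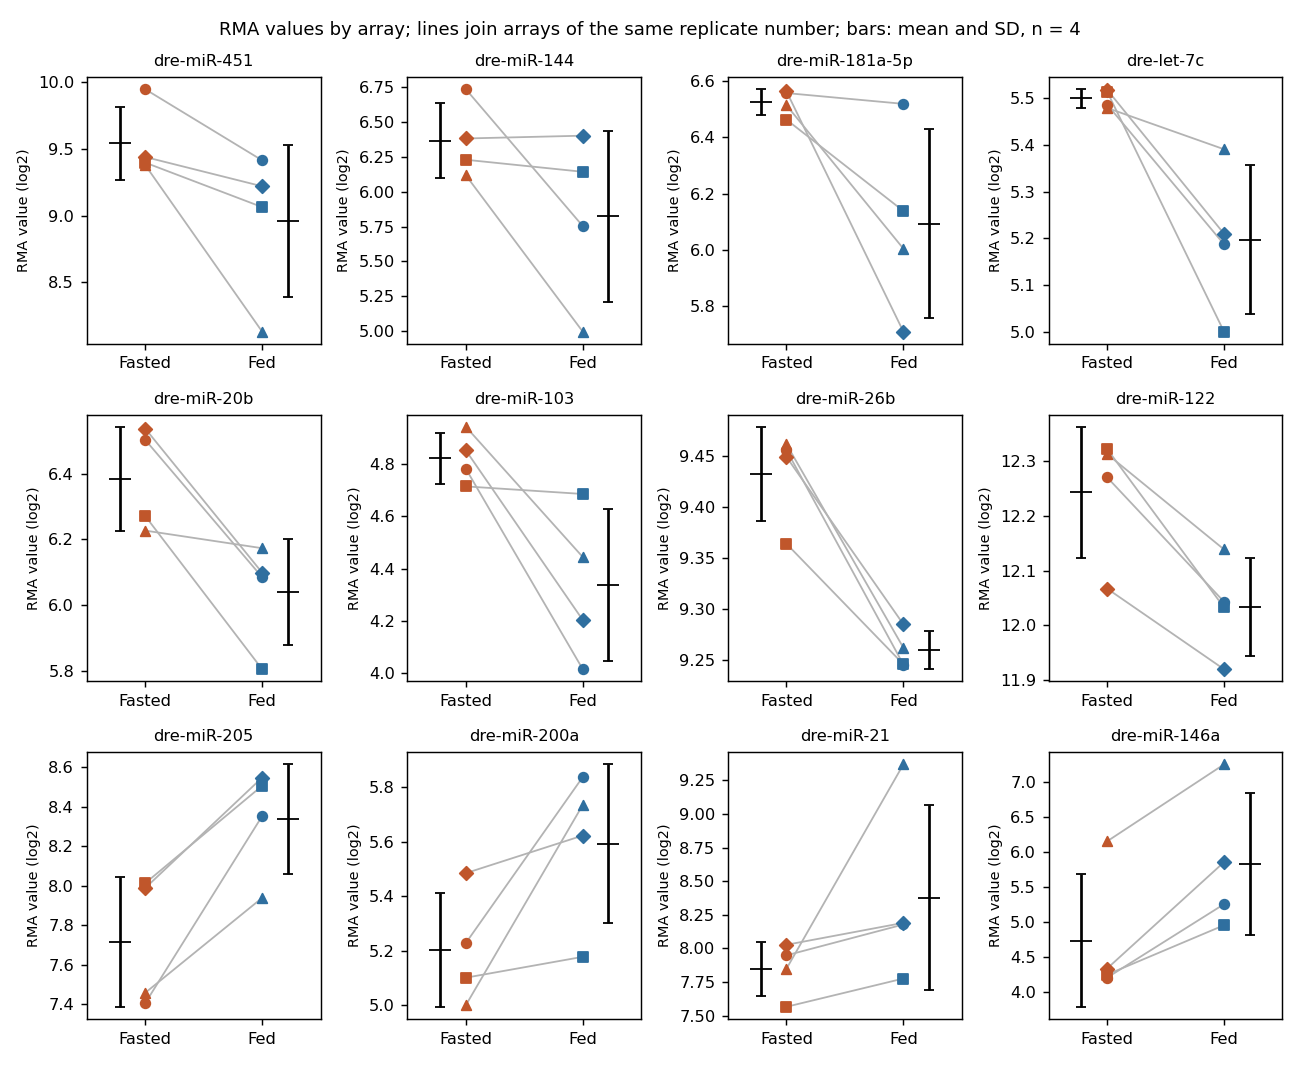
RMA values (log2) of 12 miRNAs on each Fasted and Fed array, with lines joining arrays of the same replicate number and bars for the mean and SD (n = 4). Dre-let-7c, dre-miR-20b, dre-miR-103 and dre-miR-26b show no overlap between groups, while dre-miR-451, dre-miR-144, dre-miR-21 and dre-miR-146a turn on Fed array 3 or on the arrays of pair 3.

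On the lower side stood miRNAs of epithelia and ducts. Of 14 such markers 3 were above 0 and 11 below, with a median of -0.26. Only 5 of the 14 were detected on any of the 8 arrays and 2 on all 8, so that this count and median rest largely on miRNAs below detection. The linear levels of the 14, of which dre-miR-205 was the brightest, summed to between 308 and 423 in Fasted and between 421 and 551 in Fed. Their part in the other results was not tested. The 2 detected on all 8 arrays had a median of -0.51, and of -0.27 and -0.62 under the 2 other scalings. Dre-miR-205, a miRNA of stratified epithelia, read 7.40, 8.01, 7.46 and 7.99 in Fasted, against 8.35, 8.51, 7.94 and 8.55 in Fed. Fed array 3 lay among the Fasted arrays, and all 4 pairs were lower (difference -0.62 ± 0.34, adjusted p = 0.488).

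Dre-miR-200a, dre-miR-200b and dre-miR-429a, which keep cells epithelial by holding down ZEB factors and lie within 10 kb of each other, were all lower in the mean. Dre-miR-200a read 5.23, 5.10, 5.001 and 5.48 in Fasted, against 5.84, 5.18, 5.74 and 5.62 in Fed (difference -0.39 ± 0.13, adjusted p = 0.248). Fed array 2 was the low Fed array for all 3, and without it dre-miR-200a was -0.53 with an adjusted p of 0.0425. Dre-miR-200b differed by -0.31 ± 0.15 and dre-miR-429a by -0.24 ± 0.11, but dre-miR-200b was 0.05 after scaling to the 75th percentile of detected miRNAs.

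The largest difference of all 248 was that of dre-miR-146a, a brake on inflammatory signalling in white blood cells. It read 4.20, 4.24, 6.15 and 4.33 in Fasted, against 5.25, 4.95, 7.25 and 5.85 in Fed. The arrays of pair 3 were high in both groups, and the Fasted array was the lower in all 4 pairs. The difference was -1.10 ± 0.54 (adjusted p = 0.394, and 0.0604 with the replicate block), and it was -1.57 without Fasted array 3 and -0.62 without Fed array 3. It was detected on 2 Fasted and 4 Fed arrays.

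Other white blood cell markers lay on both sides of 0. Of the 8 on the list, dre-miR-146a included, 2 were above 0 and 6 below, with a median of -0.18. Of the 3 detected on all 8 arrays 2 were below 0 and 1, dre-miR-150, was above at 0.06. Without quantile normalization the median of these 3 was 0.05. The linear levels of all 8 markers, dre-miR-146a included, summed to between 180.8 and 237.0 in Fasted and between 218.6 and 352.5 in Fed. Dre-miR-223, a neutrophil miRNA, differed by -0.27 ± 0.12 (adjusted p = 0.390) and dre-miR-142a-3p, a blood cell miRNA, by -0.36 ± 0.28. Without quantile normalization dre-miR-223 was 0.05. Dre-miR-155 was detected on none of the 8 arrays.

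Dre-miR-21, which rises in stressed and scarring liver of mammals, read 7.95, 7.57, 7.85 and 8.03 in Fasted, against 8.18, 7.78, 9.37 and 8.19 in Fed. Fed array 3 stood far above the rest, and the difference of -0.53 ± 0.29 (adjusted p = 0.481) was -0.20 without it. Dre-miR-146a, dre-miR-21 and the erythroid pair thus had Fed array 3 as the extreme Fed array in common.

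Both members of the miR-29 family, which lower collagen and, in mammals, act on insulin and lipid pathways, were lower in all 4 pairs. Dre-miR-29a differed by -0.25 ± 0.13 and dre-miR-29b by -0.31 ± 0.15 (adjusted p = 0.446 and 0.394). They are neighbours in the genome. Neither sign held under every scaling: dre-miR-29a was 0.01 without quantile normalization and dre-miR-29b was 0.27 after scaling to the 75th percentile of detected miRNAs. Dre-miR-30e-5p read 7.95, 8.12, 8.07 and 8.12 in Fasted, against 8.18, 8.30, 8.36 and 8.44 in Fed, without overlap, and differed by -0.26 ± 0.13 (adjusted p = 0.394), or by 0.07 without quantile normalization. Dre-miR-16b, a relative of miRNAs that slow the cell cycle, differed by -0.31 ± 0.19 (adjusted p = 0.560).

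**Figure D5:**
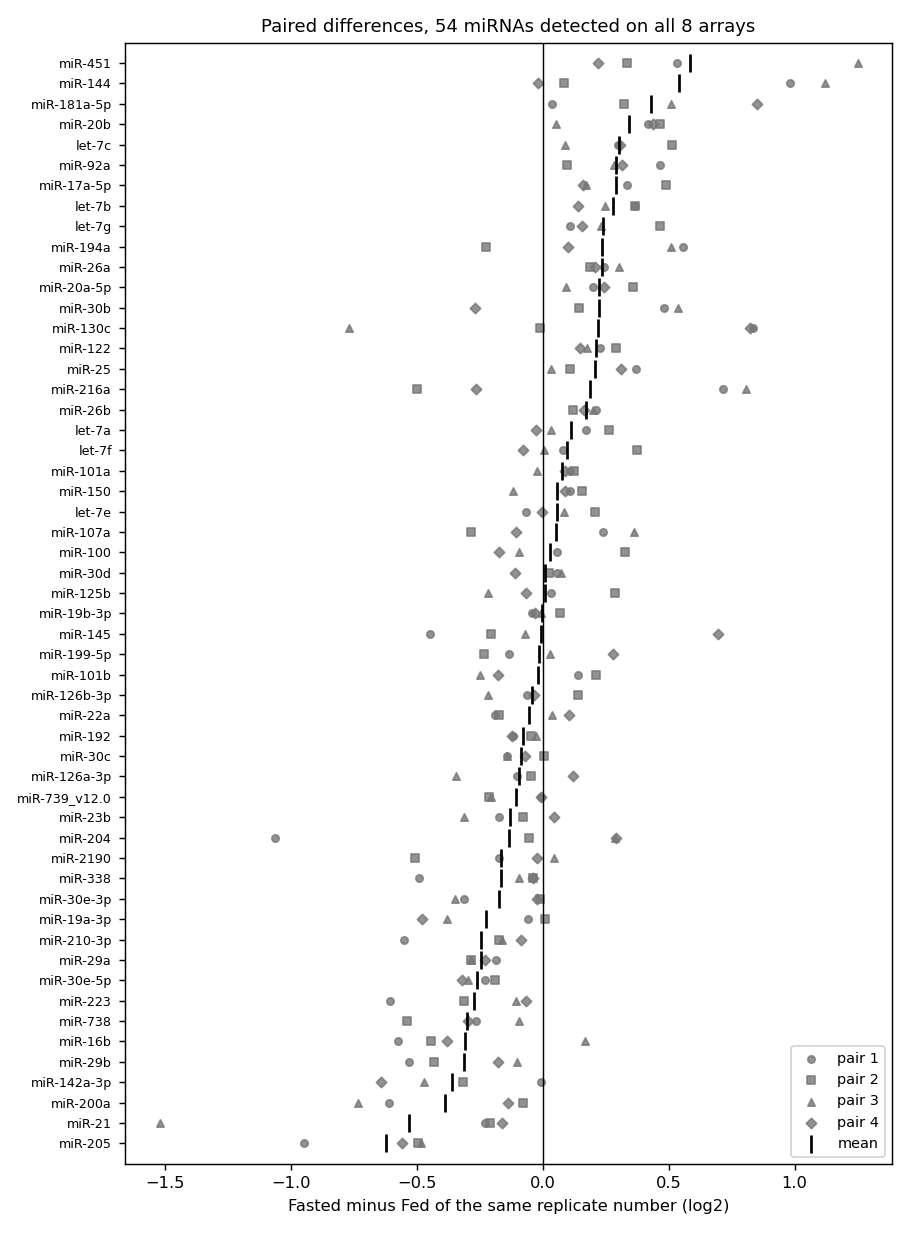
Fasted minus Fed difference (log2) within each of the 4 pairs of arrays for the 54 miRNAs detected on all 8 arrays, ordered by the mean, which is marked by a black bar. For 13 miRNAs all 4 pairs are above 0 and for 14 all are below.

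The hepatocyte miRNAs lay on both sides of 0 in the RMA values. Dre-miR-122, the hallmark of liver cells, which supports lipid and cholesterol metabolism, read 12.27, 12.32, 12.31 and 12.07 in Fasted, against 12.04, 12.03, 12.14 and 11.92 in Fed. Fasted was higher in all 4 pairs, by 0.21 ± 0.14 (95% interval -0.09 to 0.51, adjusted p = 0.602). The difference was 0.24 by its dimmer probe and -0.001 by its brighter probe. The brighter one had the highest mean of all probes, 12.65 in both groups. Quantile normalization leaves a probe at the top of the ranking little room to differ between arrays. The -0.001 therefore cannot show whether the probes disagree. The same limit may have held down the 0.21 and narrowed its interval, which was not tested. Dre-miR-192 differed by -0.08 ± 0.14 (95% interval -0.38 to 0.22) and dre-miR-194a, its neighbour in the genome, by 0.24 ± 0.17. Without quantile normalization dre-miR-192 lay above 0 as well. Dre-miR-148 differed by -0.26 ± 0.23 and was detected on 1 Fasted and 4 Fed arrays. Without quantile normalization dre-miR-122 differed by 0.45, with an adjusted p of 0.0498 once the replicate block was added, and the median of the 3 hepatocyte markers detected on all 8 arrays was 0.45, against 0.21 in the RMA values. Dre-miR-22a differed by -0.05 ± 0.08 and dre-miR-739 by -0.11 ± 0.12. Over the 11 liver-enriched miRNAs the median was -0.02 in the RMA values, with 5 above 0 and 6 below, and 0.30 without quantile normalization. The 7 of them detected on all 8 arrays had a median of 0.33 without quantile normalization, beside 0.31 over the 54 so detected.

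The 31 members of the insulin and lipid list had a median of 0.06, with 20 above 0 and 11 below. The list takes in let-7, miR-103, miR-107, miR-26, miR-29, miR-130 and miR-143, and miR-27, miR-34 and miR-375, which were detected on none of the 8 arrays. Of the 31, 0 passed after adjustment, and without adjustment 8 were higher (against 9.68% of all miRNAs tested) and 1 lower. Only 19 of the 31 were detected on any of the 8 arrays and 12 on all 8. Those 12 had a median of 0.14, with 10 above 0 and 2 below. Fish-specific dre-miR-462 and dre-miR-731 were detected on 0 of the 8 arrays.

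A list of 13 miRNAs was drawn up, 12 from the study's text and dre-miR-739, which that text does not name. It mixes comparisons with and without FLX and both directions, and the study's 12 were chosen on these samples, so that it is no independent evidence of a direction. Of the 13, 8 were above 0 and 5 below, with 0 passing after adjustment. Of the 7 of them that were listed for fasting without FLX, 6 were above 0 and 1 below. Only 2 of these 7 were detected on any of the 8 arrays, dre-miR-103 and dre-miR-22b, both on 0 Fed arrays, so that the signs are mostly those of background values. The largest difference of the 7 was 0.48. Of the 13, only 3 were detected on all 8 arrays, dre-miR-205, dre-miR-19a-3p and dre-miR-739. Detected on none were 7: dre-miR-457b, dre-miR-193a, dre-miR-301a, dre-let-7d, dre-miR-210-5p, dre-miR-181c and dre-miR-140-5p. For the undetected ones no fold or difference is given, since both groups lay below the detection measure.

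Dre-miR-181c shows how the summary of the spots decides such values. Its RMA values were 3.59, 3.75, 4.03 and 3.85 in Fasted, against 3.76, 3.46, 3.51 and 3.53 in Fed, with overlap (adjusted p = 0.376). The scanner software's total gene signal for it was 21.8, 19.3, 28.4 and 19.3 on the Fasted arrays and was listed at 0.1, the value the software writes for a miRNA it marks as not detected, on each of the 4 Fed arrays. By the software's mark the groups were thus apart, and by the share of spots above background both were undetected. The log2 of these deposited signals, an alternative chosen after seeing the data, put 7 of 248 (2.82%) past an adjusted p under 0.05, all of them higher in Fasted and dre-miR-181c among them.

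Dre-let-7d was marked as detected on Fasted array 1 alone, at 26.6, and was listed at 0.1 on the 7 other arrays, while its RMA values were 3.66 ± 0.11 in Fasted and 3.45 ± 0.12 in Fed (SD, n = 4 each; adjusted p = 0.390). Dre-miR-140-5p was marked on 3 Fasted and 0 Fed arrays and dre-miR-193a on 3 and 0, with RMA values of 3.97 ± 0.38 in Fasted and 3.88 ± 0.14 in Fed for dre-miR-140-5p and of 3.65 ± 0.30 in Fasted and 3.63 ± 0.20 in Fed for dre-miR-193a. Dre-miR-301a, dre-miR-210-5p and dre-miR-457b were marked on 2, 3 and 1 Fasted arrays and on 0, 1 and 0 Fed arrays. Dre-miR-22b was detected on 2 Fasted and 0 Fed arrays, with no overlap in its RMA values (difference 0.36 ± 0.10, adjusted p = 0.162). Against the dimmest detected signal on each Fed array, or its own value where higher, it was 1.13-fold higher in Fasted.

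Beside dre-miR-103 and dre-let-7i, 4 miRNAs were detected on at least 3 arrays of one group and 0 of the other, all on 3 Fasted and 0 Fed arrays. Dre-miR-19c read 4.88, 4.38, 4.69 and 4.68 in Fasted, against 4.07, 4.23, 4.52 and 4.35 in Fed, and the groups overlapped. Against the dimmest detected signal on each Fed array, or its own value where higher, it was 1.23-fold higher in Fasted. By the same measure dre-miR-140-3p was 1.16-fold higher and dre-miR-19d 1.06-fold higher. For dre-miR-126a-5p the 2 groups had equal means to 2 decimals and no bound above 1.

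The 2 probes or more of each miRNA gave the same sign for 46 of the 54 miRNAs detected on all 8 arrays, and for all 11 of these with an unadjusted p under 0.05. Dre-miR-122 was among those with unlike signs, but the sign of its brighter probe is uninformative after quantile normalization, as given above. The median gap between the lowest and highest probe difference was 0.06. Probes of a miRNA read the same RNA on the same arrays and are no replicates of the condition.

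Markers of muscle were detected on few arrays. None of the 8 skeletal and heart muscle miRNAs was detected on all 8 arrays, 2 were detected on 1 Fed array each, and all 4 pairs were lower for 4 of the 8 (13.3% over all 248). Dre-miR-206, a skeletal muscle miRNA, read 0.90, 1.22, 1.20 and 1.33 in Fasted, against 1.03, 4.13, 1.24 and 1.22 in Fed, and dre-miR-1 was likewise highest on Fed array 2, at 3.49. The linear muscle levels summed to between 35.7 and 41.8 in Fasted and between 39.3 and 94.6 in Fed. Dre-miR-499, a miRNA of slow and heart muscle and 1 of the 2 beyond 2-fold, read 1.82, 3.11, 2.49 and 2.62 in Fasted, against 3.49, 3.25, 2.68 and 4.76 in Fed. It was detected on 0 Fasted arrays and 1 Fed array, was highest on Fed array 4, and had an adjusted p of 0.394 with all 4 pairs lower in Fasted. Dre-miR-133a-3p, at 3.16, 3.21, 3.15 and 2.998 in Fasted, against 3.25, 3.65, 3.21 and 3.22 in Fed, was lower in all 4 pairs as well and detected on none of the 8 arrays.

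The pancreatic dre-miR-217 varied more between arrays than between groups, at 5.57, 4.87, 5.28 and 4.24 in Fasted, against 4.32, 4.93, 3.55 and 4.64 in Fed (difference 0.63 ± 0.57, adjusted p = 0.695). That 0.63 was the largest positive difference of all 248, and dre-miR-217 was detected on 4 Fasted and 2 Fed arrays. Its neighbours in the genome, dre-miR-216b and dre-miR-216a, differed by 0.53 and 0.19. For each of these miRNAs 2 of 4 pairs were higher. Dre-miR-375, the other pancreas marker, was detected on none of the 8 arrays.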

How the data were processed

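Liver miRNA was measured on 1-colour custom Agilent arrays, labelled with Cy3. For each array the authors deposited the output of Agilent Feature Extraction (version 11.0.1.1), which holds per spot a background-subtracted intensity, not normalized between arrays, with flags, and per miRNA a total gene signal intensity written as 0.1 where the software marks it as not detected. A deposited table of log2 values was not used here. Groups came from the labels.

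The mean spot signal is not among the columns used, so background-subtracted signals were taken, as the design allowed. In limma 3.58.1 (R 4.3.3) RMA values were made by the rma75 normal-exponential background model on all spots, removal of control and outlier spots, quantile normalization over 16 arrays, log2 and median polish (at most 20 iterations). Group means were fitted over 16 arrays (lmFit, eBayes, Benjamini-Hochberg over 248 miRNAs), with no filter on signal. The main threshold was an adjusted p under 0.05 and a 2-fold change. The steps were tested on simulated data. Bounds set the brighter group's mean against the dimmest detected signal, or the miRNA's own where higher, on each array of the other group. They are point estimates and no tested minimum. Array measures were compared by exact permutation with scipy 1.17.1. Signal over background and the number of arrays limit the precision.

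Arrays of the same replicate number share a slide and slide column, and were therefore treated as pairs. Their deviations from the group means correlated weakly, at 0.193, 0.265, 0.204 and 0.113. Between Fasted and Fed arrays of different number the correlations ran from -0.267 to 0.140, so that the ranges overlapped. Slide row was reversed between the 2 slides.

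Named were 13 miRNAs (12 listed by the study for any of its treatments, FLX included, and dre-miR-739), their near relatives, the 6 largest differences each way among those detected on all 8 arrays, the 6 smallest p, those detected on at least 3 arrays of one group and 0 of the other, the 5 brightest in Fed, and members of lists. The comparison, members and lists were chosen with earlier results of these data known. Genome neighbours came from RefSeq names (GRCz12tu), in which 242 of 248 matched. Grouping by seed sequence was not done, and families are by name. Alternatives were other scalings, background corrections, summaries, filters, blocks and variance models, the methods' test (Tukey), each array left out, and 3 chosen after seeing the data.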

Additional observations from a re-analysis of the deposited data

Results flagged for a closer look

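Single arrays stood apart within a group of 4 by a gap larger than Dixon's test allows, a test that chance alone passes in about 1 of 20 groups. The gaps were not adjusted for the number of groups examined. On Fed array 2 the muscle miRNAs dre-miR-206, at 4.13, dre-miR-1, at 3.49, and dre-miR-133a-3p, at 3.65, were high. On the same array dre-miR-200b was low, at 4.60, and dre-miR-457b stood apart at 3.15. Fed array 2 also had the lowest share of spots well above background in Fed, 26.3%. Fasted array 1 was high for dre-miR-451, at 9.95, and for dre-miR-2188-5p, at 6.24. Fasted array 2 was high for dre-let-7g, at 8.05, and low for dre-miR-26b, at 9.36. Fasted array 3 was high for dre-miR-146a, at 6.15, and Fed array 3 was high for dre-miR-22b, at 4.04.

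The fasting difference was not the same in fish held in FLX as in fish without it for 4 of 248 miRNAs (1.61%), by limma's interaction term at an adjusted p under 0.05. The fasting difference with FLX minus that without FLX was -1.23 for dre-miR-181a-5p (adjusted p = 0.0061), -0.91 for dre-miR-181c (adjusted p = 0.0027), 0.86 for dre-miR-29a (adjusted p = 0.0192) and 1.04 for dre-miR-29b (adjusted p = 0.0175). Dre-miR-181c was below detection on all 8 arrays without FLX, so that its fitted value is no measure of a fold. The interaction was fitted on the RMA values alone, and no other scaling, block or left-out array was tried for it. Without FLX the differences of dre-miR-29a and dre-miR-29b each changed sign under another scaling. Each treatment was held in a single tank here too.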

How the results depend on the processing

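The count of miRNAs at an adjusted p under 0.05 and 2-fold was 0 under each of the other alternatives run, arrays left out included, and was 2 with the deposited total gene signal as it stands (floor 0.1), a choice made after seeing the data, as were the 2 that join the block with another scaling. At any fold, 0 passed except 1 with the 75th percentile over all spots (dre-miR-130a), between 0 and 2 with an array left out (2 without Fed array 2, dre-miR-103 and dre-miR-200a), 7 with that signal and 19 with the replicate block and no quantile normalization. The count of 29 at an unadjusted p under 0.05 was 14 with the 75th percentile over detected miRNAs, 16 over all spots, 19 on scaled total gene signals, 15 among 79 miRNAs kept by a filter on detection, 46 with the replicate block, 10 by the methods' test (0 after Benjamini-Hochberg), 57 with the block and no quantile normalization and 18 with the block and the 75th percentile over detected miRNAs. With an array left out it ran between 21 and 30. Quantile normalization over the 8 Fasted and Fed arrays alone gave 38, with Fasted higher for 25 and lower for 13. No other call was changed by the replicate block. The causes were not tested.

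Some single differences changed sign. Without quantile normalization, block or not, these were dre-miR-126a-5p (0.12), dre-miR-16b (0.080), dre-miR-192 (0.30), dre-miR-19a-3p (0.15), dre-miR-223 (0.048), dre-miR-22a (0.33), dre-miR-29a (0.0056), dre-miR-30e-5p (0.073) and dre-miR-739_v12.0 (0.22). With the deposited total gene signal as it stands the same 9 were 0.41, 0.11, 0.32, 0.21, 0.11, 0.35, 0.030, 0.084 and 0.23, and dre-miR-457b was 1.92. With the 75th percentile over detected miRNAs, block or not, dre-miR-126a-5p was 0.39, dre-miR-200b was 0.050, dre-miR-29b was 0.27 and dre-miR-457b was 0.34, and over all spots they were 0.40, 0.059, 0.27 and 0.38. On scaled total gene signals dre-miR-126a-5p was 0.024 and dre-miR-457b 1.097, and with no background correction dre-miR-457b was 0.029. Dre-miR-126a-5p was 0.0030 with quantile normalization over 8 arrays and 0.013 as the mean over spots. With an array left out, the ranges that crossed 0 were those of dre-miR-1 (-0.76 to 0.023), dre-miR-107a (-0.041 to 0.18), dre-miR-126a-5p (-0.088 to 0.067), dre-miR-140-5p (-0.024 to 0.27), dre-miR-193a (-0.078 to 0.16), dre-miR-210-5p (-0.078 to 0.15), dre-miR-22a (-0.11 to 0.0019) and dre-miR-457b (-0.096 to 0.029), where dre-miR-1 did so without Fed array 2. For dre-miR-1, dre-miR-140-5p, dre-miR-193a, dre-miR-210-5p and dre-miR-457b, below detection on all 8 arrays, these fitted values are no measure of a fold.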
